A study of Homo sapiens with 8 samples.

Results

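Between the H3K27ac regions that human pancreatic progenitors (PPs) kept under BET inhibition and those that dropped out of every treated library lay a class that only 1 of 2 treated libraries called. After peaks of the 4 deposited lists that shared at least 1 bp were merged, 855 of 15752 regions had a peak in both DMSO libraries and in exactly one I-BET151 library, which is 5.43% of all merged regions. Of these, 288 were missing from I-BET151 replicate 1 (1.83% of all regions) and 567 were missing from I-BET151 replicate 2 (3.6% of all regions). Because the regions were selected on the peak calls, the counts, strengths and widths taken from the same lists are given as a description, without a test. Sequence, position and annotation took no part in the selection.

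The PPs came from MEL1, an established line of human embryonic stem cells which the study's methods list with the reporter genotype INS GFP/W, and were cultured for 7 days with the solvent DMSO or with 1 μM I-BET151. All groups shared EF6, which supplies the growth factors EGF and bFGF together with an inhibitor of TGFβ receptors. Each treatment had 2 H3K27ac ChIP-seq libraries, and the 4 matching input libraries of the 8 samples were not analysed here as samples. Nothing in the labels says that replicates came from separate cultures, and every library came from 1 cell line. The lists held 12312 to 14248 peaks. The ChIP depth worked out from them was 7.96 and 9.84 M reads in DMSO replicates 1 and 2. It was 7.76 and 8.04 M reads in I-BET151 replicates 1 and 2. PP markers such as PDX1, NKX6-1, SOX9, FOXA2 and GATA6 had at least 1 peak within 3 kb of the start in every library, whereas INS, NEUROG3, ALB, AFP, POU5F1 and NANOG had 0 peaks there in all 4 libraries. CDX2, an intestinal transcription factor, had 3 peaks in each library.

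H3K27ac, the acetylation of lysine 27 of histone H3, marks active promoters and active enhancers and is deposited mainly by the acetyltransferases p300 and CBP. BET proteins bind acetylated lysines through their bromodomains and recruit P-TEFb, the kinase that releases paused RNA polymerase II. I-BET151 occupies those bromodomains and displaces BET proteins from chromatin without being an inhibitor of the acetyltransferases themselves. Peak calling compares ChIP reads with local input reads at a fixed significance threshold, so a region without a peak in a library may still have been acetylated there below the threshold.

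GC content at the summit, described further on, differed between the regions missing from one I-BET151 library and those missing from the other, and example sequences are shown for that reason. For each missing library, the promoter region and the region away from promoters with the best mean list position are given. Sequences are from hg38, plus strand, 5′ to 3′, 80 bases either side of the summit of the strongest peak, with CpG dinucleotides in capitals.
SAR1A promoter (missing from I-BET151 replicate 1), chr10:70170215-70170375: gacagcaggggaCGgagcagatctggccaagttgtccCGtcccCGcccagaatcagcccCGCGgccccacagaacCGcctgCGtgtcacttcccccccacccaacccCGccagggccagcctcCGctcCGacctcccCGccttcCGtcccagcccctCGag
METTL24 intron (missing from I-BET151 replicate 1), chr6:110330033-110330193: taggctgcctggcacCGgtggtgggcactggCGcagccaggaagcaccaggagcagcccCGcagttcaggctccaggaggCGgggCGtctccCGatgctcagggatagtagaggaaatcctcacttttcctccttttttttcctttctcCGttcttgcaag
VIL1 promoter (missing from I-BET151 replicate 2), chr2:218419688-218419848: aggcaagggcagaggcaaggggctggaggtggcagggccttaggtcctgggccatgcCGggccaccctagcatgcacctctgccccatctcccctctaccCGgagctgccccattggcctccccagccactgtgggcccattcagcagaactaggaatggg
TECPR2 intron (missing from I-BET151 replicate 2), chr14:102443060-102443220: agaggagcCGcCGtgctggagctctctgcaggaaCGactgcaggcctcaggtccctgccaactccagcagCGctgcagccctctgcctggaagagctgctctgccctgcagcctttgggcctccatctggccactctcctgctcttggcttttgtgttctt
The SAR1A window held 13 CpG dinucleotides and the VIL1 window 2. The METTL24 window held 7 and the window in TECPR2 held 4. Over the 501 bp around the summit GC content was 66.9% at SAR1A, 53.5% at METTL24, 60.3% at VIL1 and 50.7% in TECPR2. METTL24 and TECPR2 were below the lower GC quartiles of their sets, 63.7% for replicate 1 and 58.5% for replicate 2. METTL24 was also below VIL1 of the other set, so these examples do not stand for the GC contrast.

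A second set shows regions away from promoters with the AP-1 consensus TGANTCA, a sequence bound by dimers of JUN and FOS family proteins. The best-placed region with a match inside the window is printed for replicate 1 and the 2 best-placed for replicate 2, with the match in capitals. They were chosen after their values were seen.
intergenic, nearest start NANOS3 (missing from I-BET151 replicate 1), chr19:13851439-13851599: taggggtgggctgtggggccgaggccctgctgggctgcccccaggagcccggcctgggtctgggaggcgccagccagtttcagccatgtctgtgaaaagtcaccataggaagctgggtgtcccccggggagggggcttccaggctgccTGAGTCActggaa
MYO18A intron (missing from I-BET151 replicate 2), chr17:29155399-29155559: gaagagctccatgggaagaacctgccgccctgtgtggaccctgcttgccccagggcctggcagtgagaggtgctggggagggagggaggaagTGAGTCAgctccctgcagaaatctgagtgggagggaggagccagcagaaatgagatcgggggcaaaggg
VAC14 intron (missing from I-BET151 replicate 2), chr16:70747724-70747884: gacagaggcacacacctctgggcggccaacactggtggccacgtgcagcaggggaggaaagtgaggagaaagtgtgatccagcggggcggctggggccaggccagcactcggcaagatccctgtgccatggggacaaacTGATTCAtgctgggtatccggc
Matches lay 12 to 68 bp from the summit. A match is a description of the sequence and not evidence that a factor was bound.

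Regions that one I-BET151 library missed were mostly weak in the libraries that called them. To describe strength, each peak was placed in its own list from 0% (strongest) to 100% (weakest). The 855 regions had a median list position of 76.4% in DMSO replicate 1 and 75.02% in DMSO replicate 2, against 38.8% and 37.2% for the 10317 regions called in all 4 libraries. The 1355 regions that both DMSO libraries called and no I-BET151 library did, termed lost here, had medians of 80.2% and 77.3%. In the calling I-BET151 library the median position was 85.2% for the 567 regions called in replicate 1 and 91.9% for the 288 called in replicate 2. Regions missing from one DMSO library and called in the other 3 libraries were as far down the lists, with medians of 76.8% and 79.8% in the I-BET151 libraries and 86.0% and 87.8% in DMSO replicates 1 and 2 where called. Median −log10 q of the 855 regions was 13.5 and 13.4 in the DMSO libraries, 9.53 in I-BET151 replicate 1 and 7.10 in I-BET151 replicate 2.

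**Figure D1:**
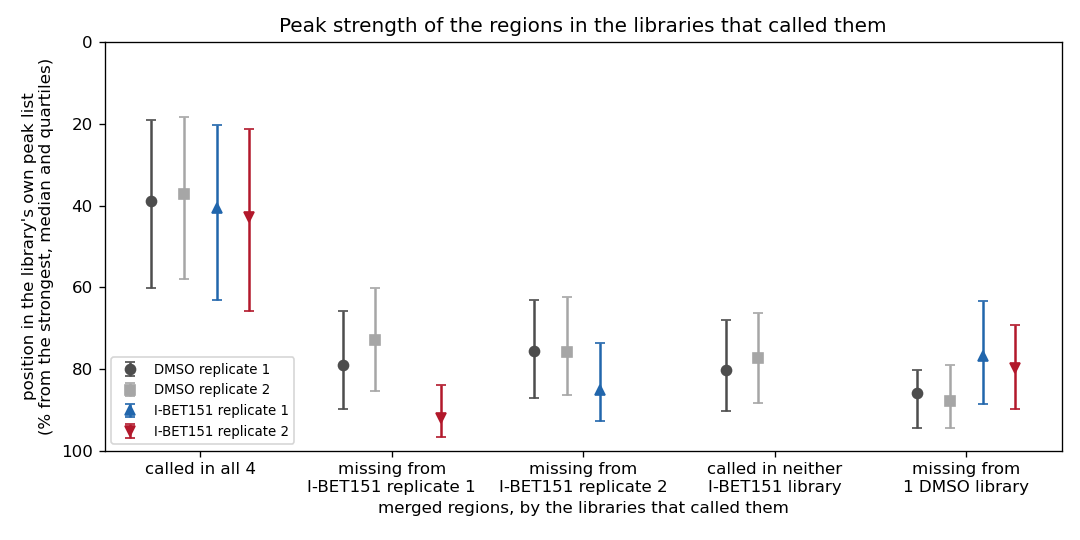
Position in the library's own peak list (%, 0 the strongest) for merged regions by the libraries that called them, with 1 marker for each library that called them (median) and bars from the lower to the upper quartile. Regions missing from one I-BET151 library sat near 75% in DMSO, close to lost regions and to regions missing from one DMSO library, and far below regions called in all 4 libraries.

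Some passed thresholds above that of the lists, although the median −log10 q over all regions was 28.0 to 29.8 in the 4 libraries. A −log10 q of at least 10 in each of the 3 calling libraries was reached by 220 of the 855 regions (25.7%), 52 of the 288 missing from replicate 1 and 168 of the 567 missing from replicate 2. A −log10 q of at least 20 was reached by 17 regions, 2 missing from replicate 1 and 15 missing from replicate 2. The matching shares over all regions and in other classes were not computed. These counts therefore do not show whether the class was high or low. Among regions called in both DMSO libraries, the share missing from replicate 2 was 0.113% in the strongest part of the DMSO lists (mean position below 20%) and 12.8% in the weakest (80% and above). The share missing from replicate 1 went from 0 of 2666 regions (Wilson upper limit 0.144%) to 7.01% over the same classes.

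The regions were also narrow. Their median width was 434 bp. Lost regions had a median of 419 bp, regions missing from one DMSO library one of 438 bp, and regions with a peak in all 4 libraries one of 774 bp. Summed over the 855 regions, peaks covered 398.8 kb in DMSO replicate 1, 388.8 kb in DMSO replicate 2, 200.4 kb in I-BET151 replicate 1 and 101.2 kb in I-BET151 replicate 2. Mean covered length was 393.8 ± 7.08 kb (SD, n = 2) with DMSO and 150.8 ± 70.2 kb (SD, n = 2) with I-BET151, a direction that the selection itself fixes. The mean covered length per called region was 466 and 455 bp in the DMSO replicates, as against 354 and 351 bp with I-BET151, the latter over the 567 and 288 regions called. In the same regions, peaks of I-BET151 replicate 2 covered a median 0.774 and 0.776 of the lengths in DMSO replicates 1 and 2. For I-BET151 replicate 1 the ratios were 0.859 and 0.918, narrower than DMSO replicate 2 at 64.0% of regions, and DMSO replicate 2 itself covered 0.941 of DMSO replicate 1 there, narrower at 65.8%.

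Where the remaining I-BET151 library called the region, its summit signal had a lower ratio to DMSO than in regions called in all 4 libraries. ChIP reads at the summit, recovered as whole reads from the deposited fold and p-values, were divided by library depth. At regions missing from replicate 1, reads per M in I-BET151 replicate 2 were a median 0.746 of DMSO replicate 1 and 0.777 of DMSO replicate 2, and were below DMSO replicate 1 at 234 of 264 regions with resolved reads (88.6%) and below DMSO replicate 2 at 86.5%. At regions missing from replicate 2, reads per M in I-BET151 replicate 1 were a median 0.791 and 0.828 of the DMSO replicates, and were below DMSO replicate 1 at 406 of 528 regions (76.9%) and below DMSO replicate 2 at 69.7%. In regions called in all 4 libraries the same ratios were 0.933 and 1.03 for I-BET151 replicate 1 and 0.975 and 1.07 for I-BET151 replicate 2, with 64.2% and 45.4% of regions below DMSO replicates 1 and 2 for the former and 56.2% and 36.6% for the latter. Between the DMSO libraries the ratio of replicate 2 to replicate 1 was 0.957 and 0.942 for the 2 sets and 0.910 for regions called in all 4 libraries, and DMSO replicate 2 was the lower at 68.1%, 64.7% and 86.1% of regions. Requiring calls in both DMSO libraries and a miss in 1 treated library favours regions that are low under I-BET151, so these ratios are not independent of the selection.

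Just inside the class were regions whose only I-BET151 peak barely passed the threshold of 1.30 (q of 0.05). The promoter regions of SLC22A15, a solute carrier, and IQSEC1, a guanine nucleotide exchange factor for ARF GTPases, had a −log10 q of 1.34 in I-BET151 replicate 2, and that of WDR47 had 1.36 in replicate 1. Just outside, called in all 4 libraries, was a region 5090 bp from the start of SULT1B1, a sulfotransferase, with 1.51 in I-BET151 replicate 1 and 1.35 in replicate 2. At DUSP8, a phosphatase of MAP kinases, one promoter region had 1.36 in I-BET151 replicate 1 and 4.43 in replicate 2, and a second had 7.81 and 1.38.

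Promoters made up a smaller share of these regions than of those that kept their calls. The summit lay within 3 kb of the start of a protein-coding transcript (GENCODE 44) in 578 of the 855 regions (67.6%, Wilson 95% interval 64.4 to 70.7, which covers counting error only). This compares with 86.9% of regions called in all 4 libraries, 53.9% of lost regions and 66.3% (61.7 to 70.6) of the 433 regions that both I-BET151 libraries and only one DMSO library called. It was 75% (69.7 to 79.6) for regions missing from replicate 1 and 63.8% (59.8 to 67.7) for those missing from replicate 2. Seen the other way, of 2258 regions away from promoters that both DMSO libraries called, 277 (12.3%) were missing from exactly one I-BET151 library and 625 (27.7%) were lost. At promoters the figures were 578 (5.63%) and 730 (7.11%) of 10269. By annotation, 42.2% of summits were in introns, against 40.8% over all merged regions, and 24.1% were intergenic, against 20.6%. Coding exons held 12.3%, against 14.4%, and untranslated parts of exons of coding transcripts 18.8%, against 21.0%. Other exons held 2.57%, against 3.21%. Away from promoters the median distance to the nearest start was 22.1 kb. Of these 277 regions, 47 (17.0%) lay within 3 kb of the start of a long non-coding RNA. Away from promoters this share was 32.7% in regions called in all 4 libraries and 22.4% over all merged regions. It was 20.5% in regions missing from one DMSO library and 14.9% in lost regions. A share below that of regions called in all 4 libraries was therefore not particular to the class.

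GC content separated the regions by the library that missed them. Median GC over 501 bp was 68.3% (quartiles 63.7 and 72.9) for regions missing from I-BET151 replicate 1 and 61.3% (58.5 and 64.7) for regions missing from replicate 2. Regions called in all 4 libraries had a median of 68.9% and lost regions 63.7%. The difference was present at promoters (69.9% against 62.1%) and away from them (64.8% against 60.3%). It was also present in the weaker part of the DMSO lists (position of 60% or more), where it was 6.99 percentage points. The local input level, relative to the genome-wide input level of the same library, moved with it: its median over the DMSO summits was 40.0-fold for regions missing from replicate 1 and 16.0-fold for those missing from replicate 2, against 46.6-fold in regions called in all 4 libraries and 25.2-fold in lost regions. The DMSO peaks of both sets stood at like mean list positions with different read levels and folds. Regions missing from replicate 1 had 15.4 DMSO reads per M at a fold of 4.42, and regions missing from replicate 2 had 11.0 at a fold of 6.48 (medians of DMSO means), while their median DMSO list positions were 75.4% and 75.5%. Taken singly, DMSO replicates 1 and 2 had median positions of 79.1% and 72.9% for regions missing from I-BET151 replicate 1. For regions missing from I-BET151 replicate 2 the positions were 75.7% and 75.8%.

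Among the 12527 regions called in both DMSO libraries, the share missing from replicate 2 fell from 16.2% (12.5 to 20.8) below 55% GC through 14.0%, 7.75%, 2.51% and 1.38% to 0.632% (0.370 to 1.08) at 75% GC and above. The share missing from replicate 1 stayed between 1.85% and 2.92% in the same 6 classes. The shares crossed, with 2.12% missing from replicate 1 and 2.51% from replicate 2 at 65 to 70% GC. At 70 to 75% GC they were 2.62% and 1.38%. In the weaker part of the DMSO lists the shares crossed between the same classes. Below 55% GC, 21.8% of regions were missing from replicate 2 and 3.91% from replicate 1, and at 75% and above 2.27% were missing from replicate 2 and 8.33% from replicate 1. These shares compare regions within single libraries. Regions are not replicates, and with 1 library on each side no test over samples is possible.

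**Figure D2:**
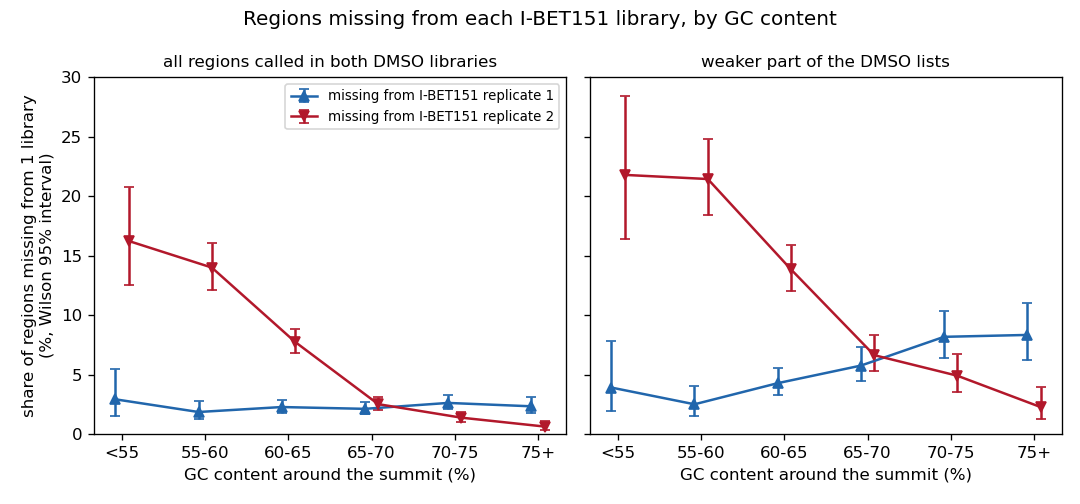
Share of regions called in both DMSO libraries that were missing from I-BET151 replicate 1 only or replicate 2 only (%, points with Wilson 95% intervals) by GC content of the 501 bp around the summit, for all such regions (left) and for the weaker part of the DMSO lists (right). Regions missing from replicate 2 were concentrated below 65% GC, and in both panels the lines cross between 65 and 75% GC.

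The same kind of contrast was seen between the DMSO libraries. Of 433 regions with a peak in each I-BET151 library but in only one of the DMSO libraries, the 280 missing from DMSO replicate 1 had a median GC of 66.8% and a local input level of 35.1-fold. The 153 missing from DMSO replicate 2 had 61.9% and 19.8-fold. In both treatments, therefore, the regions missing from the library numbered 2 had the lower GC and the lower input level. The part of GC content, input level and depth in the missing calls was not tested.

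**Figure D3:**
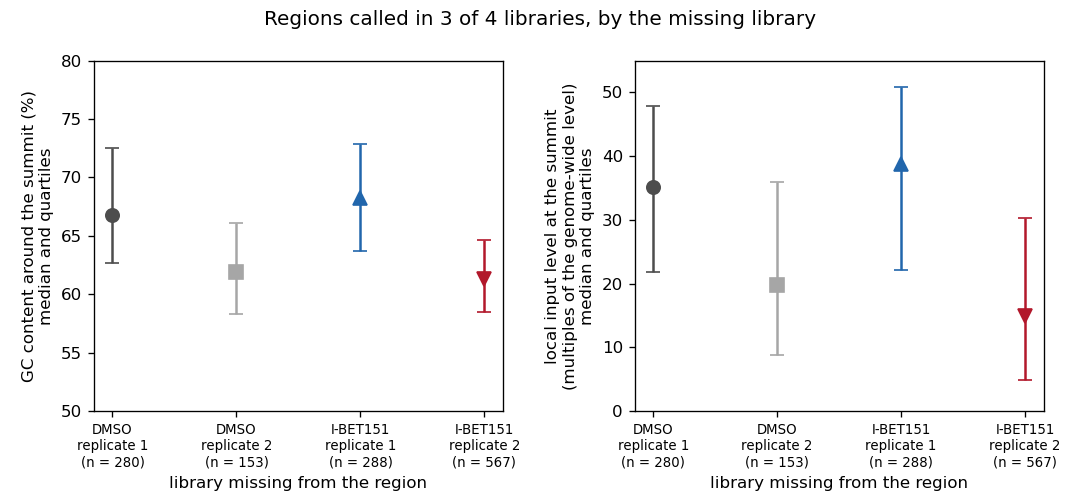
GC content (left, %) and local input level at the summit in multiples of the genome-wide level (right) of regions called in 3 of the 4 libraries, by the library that did not call them, as medians with quartiles. Regions missing from either library numbered 2 sat near 61 to 62% GC, and those missing from either library numbered 1 near 67 to 68%.

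The excess of regions missing from replicate 2 changed with the length of the lists. I-BET151 replicate 2 had the shortest list (12312 peaks) at a depth of 8.04 M ChIP reads, against 7.76 M in I-BET151 replicate 1. When each list was cut to its 12312 strongest peaks, 313 regions were missing from replicate 1 and 337 from replicate 2, in place of 288 and 567. The GC difference between the sets was then 8.18 percentage points, against 6.99 with the full lists.

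Some short sequences differed between the sets, and others did not. An AP-1 consensus (TGANTCA, either strand, within 250 bp of the summit) was found in 75 of the 855 regions (8.77%, 7.06 to 10.9), in 6.67% of all merged regions, in 4.96% of regions called in all 4 libraries and in 12.3% of lost regions. It was present in 14 of 288 regions missing from replicate 1 (4.86%, 2.92 to 7.99) and in 61 of 567 missing from replicate 2 (10.8%, 8.47 to 13.6). Away from promoters the shares were closer, 13.9% (10 of 72) and 16.1% (33 of 205), against 11.7% of all such regions. Among regions of 60 to 65% GC they were 11.1% (7 of 63) and 12.6% (27 of 215), against 7.10% of regions called in all 4 libraries and 12.7% of lost regions in that GC class.

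The half-site GGAATG of TEAD factors, which act with YAP and TAZ, was found in 17.4% and 26.3% of regions missing from replicates 1 and 2, against 17.6% of all regions. The CCAAT box of NFY was found in 24.0% and 36.0%, against 27.4% of all regions. The CEBP consensus TTGCNNAA was found in 6.94% and 13.8%, against 8.57% of all regions. The GC box GGGCGG of SP and KLF factors went the other way, with 79.2% and 59.6%, against 76.3%. In the 60 to 65% GC class the CEBP consensus was found in 11.1% and 12.6%, the TEAD half-site in 23.8% (14.99 to 35.6) and 31.2% (25.3 to 37.6), the GC box in 65.1% and 60.0%, and the CCAAT box in 25.4% (16.3 to 37.3) and 38.6% (32.4 to 45.3), so that the TEAD and NFY shares kept their order there with overlapping intervals, and the CEBP shares nearly met. Of the other consensuses, ACAATG of SOX factors was found in 8.42% of the 855 regions and in 8.58% of all regions, and TGGGAA of RBPJ, the DNA-binding effector of Notch signalling, in 37.2% and 33.0%. RBPJ matches were in 35.8% and 37.9% of regions missing from replicates 1 and 2, FOXA matches in 3.47% and 2.65%, and NRF1 matches in 2.08% and 2.29%. The GATA consensus AGATAA was found in 3.12% of regions missing from replicate 1 and in 7.23% of those missing from replicate 2, against 6.09% of all regions. Shares in the 855 regions and in all regions were 15.6% and 14.7% for CCGGAAG of ETS factors, 9.59% and 10.1% for the E-box CACGTG, 2.92% and 2.65% for TGTTTAC of FOXA factors, and 2.46% and 1.40% for the cAMP response element TGACGTCA. They were 2.34% and 2.06% for TAATTA of homeodomain factors such as PDX1, 2.22% and 2.60% for GCGCATGC of NRF1, 1.05% and 1.14% for ATCGAT of ONECUT factors, and 0.936% and 0.514% for CAAAGTCCA of HNF4.

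The best-placed regions had folds that ranged widely among the calling libraries. At VIL1, which encodes the brush-border actin-bundling protein villin, the region chr2:218419535-218419978 had its summit in an intron, 645 bp from a start. Its fold over local background was 31.5 in DMSO replicate 1, 15.3 in DMSO replicate 2 and 9.35 in I-BET151 replicate 1, with no peak in I-BET151 replicate 2 within 12590 bp. The DMSO values differed from each other by more than DMSO replicate 2 differed from I-BET151 replicate 1. ABHD12, a lipid hydrolase, had folds of 14.5, 28.5 and 5.93 in the same libraries at chr20:25309548-25310387. ZSCAN31, a zinc-finger protein, had 12.8, 13.4 and 17.4, higher in the calling I-BET151 library than in both DMSO libraries. RNF185, an E3 ubiquitin ligase, had 15.2, 15.6 and 12.5, and the shared promoter of WDR3 and GDAP2 had 9.91, 8.03 and 5.29.

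Away from promoters, the best-placed region missing from replicate 2 lay in an intron of TECPR2 at chr14:102442925-102443313, with the nearest protein-coding start that of ANKRD9 65677 bp away. Its fold was 22.3 and 17.2 in DMSO and 14.0 in I-BET151 replicate 1. An intergenic region near PROSER2 had 25.9, 18.4 and 8.55. A region in an intron of SPSB4, an adaptor of a ubiquitin ligase, had 25.03, 13.3 and 23.0. A region in an intron of DNM2, the membrane-fission GTPase dynamin 2, had 8.76, 17.5 and 16.3, and an intergenic region 67875 bp from KLF6, a zinc-finger transcription factor, had 13.1, 23.0 and 7.00. In 3 of these 5 regions I-BET151 replicate 1 had the lowest fold, and in SPSB4 and DNM2 it lay between the DMSO values.

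For regions missing from replicate 1 the folds at promoters were lower. SAR1A, a GTPase of COPII vesicle formation, had 8.17 and 8.03 in DMSO and 6.75 in I-BET151 replicate 2 at chr10:70170066-70170505. The corresponding values were 9.34, 8.76 and 6.52 at the promoter shared by LRSAM1 and the ribosomal protein gene RPL12, 5.37, 6.73 and 3.22 at SSH3, a phosphatase of cofilin, 4.90, 6.54 and 4.28 at HOOK2, a microtubule-linker protein, and 4.60, 7.44 and 5.68 at the starts of SNAP29, a SNARE protein, and PI4KA, a phosphatidylinositol kinase. Summit reads per M at SAR1A were 23.9, 23.7 and 17.3, lower in I-BET151 replicate 2 than in both DMSO libraries. Some of these promoters had other acetylation in the missing library, since a peak of I-BET151 replicate 1 lay 192 bp from the LRSAM1 region and 343 bp from the SNAP29 region.

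Away from promoters, an intronic region of METTL24, a methyltransferase-like gene, at chr6:110329917-110330318 had folds of 9.99 and 8.34 in DMSO and 15.8 in I-BET151 replicate 2. An intronic region of P2RX3, an ATP-gated ion channel, had 15.6, 9.96 and 8.77. Its summit reads per M were 15.1 and 13.4 in DMSO and 3.73 in I-BET151 replicate 2, a larger difference than that of the folds. An exonic region of FAM174B had 11.3, 11.7 and 5.72, an exonic region of PAX8, a paired-box transcription factor, had 17.3, 15.6 and 5.32, and an intronic region of RAI1 had 5.80, 5.21 and 8.49. METTL24 and RAI1 thus had their highest fold in the I-BET151 library that called them.

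**Figure D4:**
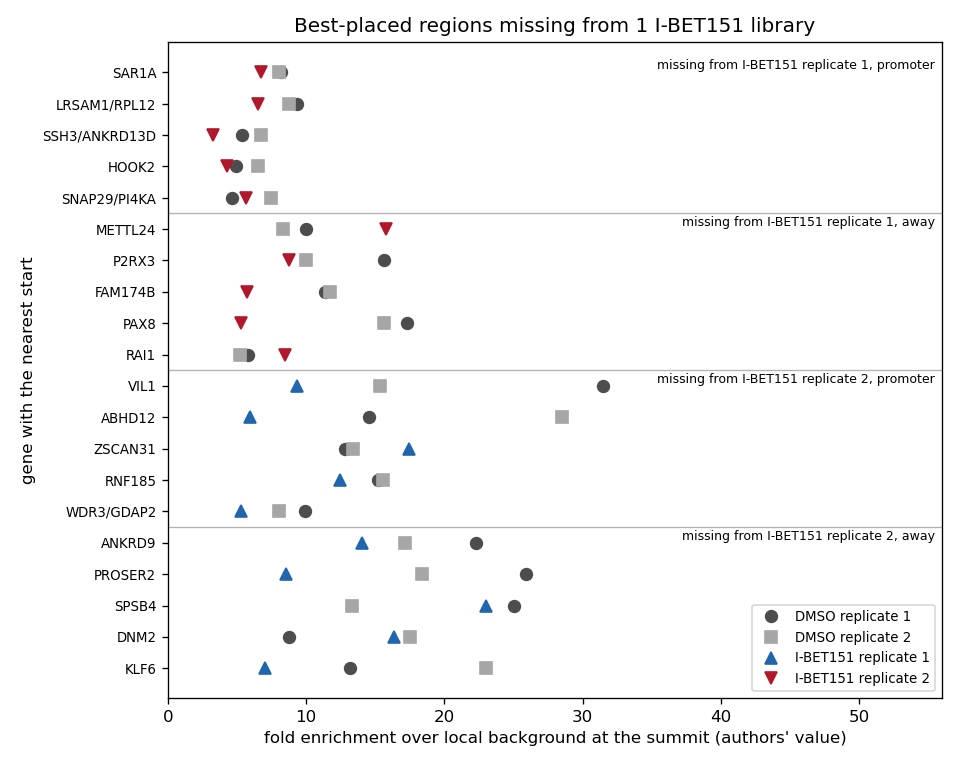
Fold enrichment over local background at the summit, as given by the authors, for the 20 best-placed regions missing from one I-BET151 library, 5 for each missing library at promoters and away from promoters, with 1 marker for each library that called the region. The DMSO markers stood at 31.5 and 15.3 for VIL1 and at 14.5 and 28.5 for ABHD12, and the I-BET151 marker was to the right of both DMSO markers for METTL24, RAI1 and ZSCAN31.

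Some of the regions stood near acetylation that the missing library did call, at shares close to those of lost regions. A peak of the missing library lay within 1 kb of 155 regions (18.1%), within 5 kb of 261 (30.5%) and within 20 kb of 439 (51.3%), with a median gap of 18.4 kb. Within 5 kb it was 33.0% for regions missing from replicate 1 and 29.3% for those missing from replicate 2. For lost regions the 5 kb shares were 28.0% in I-BET151 replicate 1 and 26.3% in replicate 2, and for regions missing from one DMSO library 33.5% in that library. Merging peaks within 500 bp lowered the share of the 855 to 17.6%, and requiring peaks to cover at least 50% of a region raised it to 51.1%.

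Regions missing from the same library were found beside each other in a few loci. Of 372 regions missing from replicate 2 with another region within 20 kb, 41 (11.0%, 8.23 to 14.6) had a further region missing from replicate 2 as the nearest, against 4.43% over all regions. For replicate 1 it was 9 of 177 (5.08%, 2.70 to 9.38), against 1.95% over all regions. A region missing from replicate 2 was the nearest to as many of these 177 (9, 5.08%), against 4.43% over all regions. Lost regions were the nearest in 12.4% of the 549 cases of the class, against 11.3% over all regions. Nearness to the same class was not particular to these regions. Of 960 lost regions with another region within 20 kb, 311 (32.4%) had a further lost region as the nearest.

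The locus with the most regions was on chromosome 19 around FXYD3, LGI4 and FXYD1. FXYD proteins are small regulators of the Na,K-ATPase, and LGI4 is a secreted protein known from peripheral glia. Of 9 merged regions there, 4 were missing from replicate 2, 1 was missing from replicate 1, 3 were lost and 1 was called in DMSO replicate 1 alone. None of the 9 was called in both I-BET151 libraries. The region at chr19:35131272-35131799 in LGI4 had folds of 7.13 and 7.73 in DMSO and 2.22 in I-BET151 replicate 1, and the region at chr19:35135130-35135586 had 6.52, 12.5 and 3.67. At FXYD3 the region at chr19:35115070-35115628 had 7.07, 4.25 and 7.77, with the I-BET151 value above both DMSO values. At FXYD1 the only region called in I-BET151 replicate 2 had 6.76, 7.67 and 3.98.

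**Figure D5:**
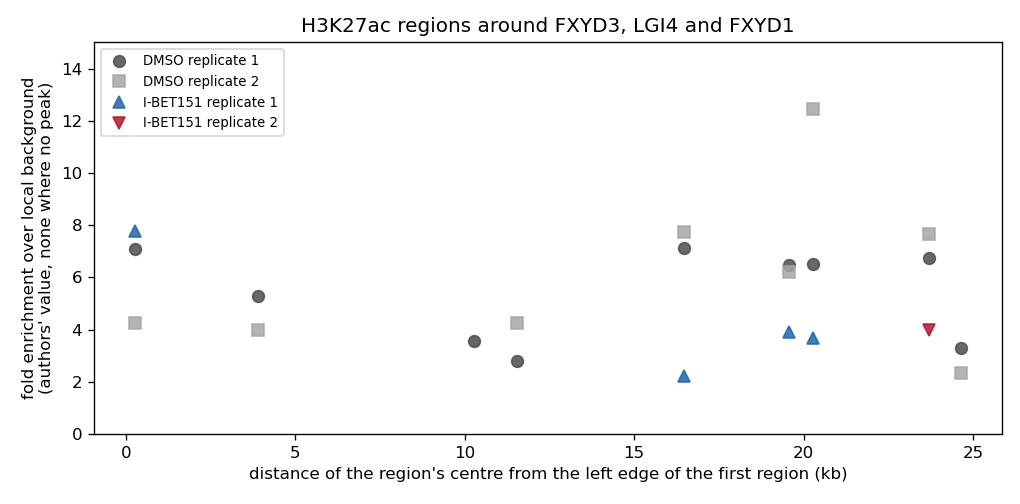
Fold enrichment over local background (authors' values) of the 9 merged regions around FXYD3, LGI4 and FXYD1, plotted by distance of the region's centre from the left edge of the first region (kb), with 1 marker for each library that had a peak. No region carries markers of both I-BET151 libraries, and 3 carry DMSO markers from both replicates and nothing from I-BET151.

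Within 50 kb of CCDC85C on chromosome 14 there were 4 such regions among 18, with 3 lost. They lay in the introns of the gene, 3 of them missing from replicate 2 and 1 from replicate 1. The region at chr14:99552001-99552632 had folds of 6.98 and 12.4 in DMSO and 5.31 in I-BET151 replicate 1, while the regions 211 bp from the start of CCNK (cyclin K) and 187 bp from a start of CCDC85C were called in all 4 libraries. On chromosome 17, 4 of the 9 regions within 50 kb of NHERF1, a PDZ scaffold of apical membranes, belonged to the class, with 1 lost. The 4 regions lay in introns of NHERF1. A region 813 bp from an NHERF1 start, also in an intron, was called in all 4 libraries with folds of 8.24, 6.27, 14.0 and 9.49. On chromosome 1, 4 of 12 regions around S100A2, in the cluster of S100 calcium-binding proteins, belonged to the class. The region 62 bp from the S100A2 start had 9.52, 11.2 and 4.67 and was missing from replicate 2, and its neighbour 41 bp from a start had a peak in all 4 libraries with 8.98, 7.91, 3.54 and 4.69.

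Genes of 15 fixed lists, for PPs and for other lineages and pathways, were searched for such a region at the start. Over all protein-coding genes with any region within 3 kb of a start, 679 of 10935 (6.21%) had one of the class. Of the PP transcription factors it was 1 of 19, GATA4. Of Notch pathway genes it was 1 of 15, NRARP, a feedback inhibitor of Notch signalling. Of ductal and epithelial genes it was 1 of 13, CLDN4, a tight-junction claudin. Of AP-1 subunits it was 2 of 11, FOSL1 and ATF3. Of hepatic and intestinal genes it was 3 of 8, SERPINA1 (alpha-1-antitrypsin), HNF4A (a nuclear receptor of endoderm) and VIL1. Of cell cycle genes it was 1 of 20, CCND3 (cyclin D3), of genes for BET proteins and P-TEFb 1 of 12, HEXIM2 (an inhibitor of P-TEFb), and of regulators of small GTPases 1 of 25, ARHGEF16. It was 0 of 17 MAP kinase feedback genes, 0 of 18 TGFβ and BMP genes, 0 of 10 WNT genes, 0 of 10 mesenchymal genes, 0 of 3 pluripotency genes, 0 of 1 endocrine gene and 0 of 1 acinar gene. With such small lists, counts of 0 or 1 are near what 6.21% gives. The counts of 2 of 11 and 3 of 8 rest on few genes and were not tested.

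At SERPINA1 the region chr14:94390411-94390822 had folds of 14.0 and 12.2 in DMSO and 3.96 in I-BET151 replicate 1, with 74, 89 and 48 summit reads, and the nearest peak of I-BET151 replicate 2 was 215534 bp away. At HNF4A the region had nearly level folds of 12.9, 11.2 and 11.7 in the 3 calling libraries, with 55, 62 and 53 summit reads, and a peak of I-BET151 replicate 2 lay 699 bp away. FOSL1, which encodes the AP-1 subunit FRA1, had folds of 5.15 and 8.18 in DMSO and 2.86 in I-BET151 replicate 1 at a region of 1219 bp, 1079 bp from a start. ATF3, a stress-induced member of the same family, had 4.01, 4.56 and 3.54, the last in I-BET151 replicate 2. CLDN4 had 5.54, 5.31 and 2.92, the last in I-BET151 replicate 1.

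The remaining listed genes had weak peaks. GATA4, a zinc-finger factor of pancreatic and hepatic progenitors, had 2.35, 3.34 and 4.35 at a region 2584 bp from a start, with the highest value in I-BET151 replicate 2, and each library had at least 4 peaks within 3 kb of a GATA4 start. NRARP had 2.45, 2.68 and 3.69, at list positions of 94.4 to 99.5%, with a peak of the missing I-BET151 replicate 2 413 bp away. HEXIM2 had 5.72, 6.23 and 6.02 from 38, 46 and 39 summit reads. CCND3 had 4.03, 3.42 and 2.88, and ARHGEF16 4.32, 3.17 and 3.18. At GATA4 and NRARP the fold in the calling I-BET151 library was above both DMSO values, and at HEXIM2 and ARHGEF16 it lay between them.

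Over all chromosomes, exactly one I-BET151 library missed 855 of the 12527 regions called in both DMSO libraries (6.83%). By chromosome the share ran from 4.31% (9 of 209) on chromosome 18 to 8.40% (34 of 405) on chromosome 15, with 0 of 5 on Y. Differences between chromosomes were not tested.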

How the data were processed

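H3K27ac ChIP-seq libraries of DMSO-treated and I-BET151-treated PPs (n = 2 each, grouped by title) were used. The authors, by their methods, aligned reads to hg38 with Bowtie2 2.2.5, removed duplicates and called peaks for each library with MACS2 2.1.2 at default settings. The deposited lists give for each peak a score (not used), the fold over local background as a ratio, and −log10 of the p-value and q-value. A fixed threshold leaves out weaker acetylation in shallower libraries, and removal of duplicates caps peak height.

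Peaks on chromosomes 1 to 22, X and Y sharing at least 1 bp were merged, and a library with at least 1 peak inside a region was taken to call it. Whole ChIP reads and input levels at summits were recovered from fold and p-value, and 97.2 to 97.7% of peaks had a single solution. GC content and 16 consensuses were taken from the 501 bp around the summit of the strongest peak, counting overlapping matches on both strands. Genes and starts were from GENCODE 44. The share of repeats was not computed because the genome used here carries no repeat masking. Scripts ran in Python 3.11.15 with numpy 2.4.6, and the read recovery was tested on simulated data. Intervals of shares are Wilson 95% intervals.

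The regions, gene lists and tests were chosen with earlier results of these data known. Named regions were the 5 with the best mean list position for each missing library at promoters and away from them, those at starts of genes in 15 lists, 3 just inside and 3 just outside the class, and 4 loci with the most regions within 50 kb of a gene. Alternatives were a −log10 q of at least 5, lists of equal length, merging within 500 bp, at least 50% coverage, autosomes, other windows, and leaving out libraries. The GC comparison was added after seeing the data. Some items withheld from the text are not reported here.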

Additional observations from a re-analysis of the deposited data

How the results depend on the processing

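Of 66 recomputed values, 56 stayed within their limits. These were 1.5-fold for counts, the interval for shares and the replicate spread for covered length. For the GC difference the limit came from the spread over regions and was at least 1 percentage point. Regions are not replicates, so that limit is a description. Counts and shares have no direction to change, and the selection fixes that of covered length. The GC difference kept its sign in every setting. With lists of equal length, regions missing from replicate 2 numbered 337, the promoter share was 72.3% and the GC difference 8.18 percentage points. The promoter share was 61.2% with a 1 kb window. The share near a peak of the missing library was 17.6% after merging within 500 bp, 51.1% with at least 50% coverage, 18.1% within 1 kb and 51.3% within 20 kb. AP-1 matches fell to 3.86% of regions within 100 bp of the summit, and the GC difference was 4.49 points away from promoters. The cause of these changes was not tested, beyond the smaller windows and shorter lists themselves. Leaving out DMSO replicate 1 or 2 gave 1078 or 999 regions. Leaving out an I-BET151 library gives no such class, and so no value. With the regions kept and each library left out in turn, covered length in I-BET151 minus DMSO ran from −292.6 to −193.4 kb, against −243.0 kb.

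With the replicate number as a block, the same-numbered differences in covered length were −198.4 and −287.6 kb, with a mean of −243.0 kb. Replicate differences of DMSO and I-BET151 correlated at 0.0766 over 9434 regions called in all 4 libraries. That value covers only regions with calls everywhere and cannot decide whether same-numbered libraries were prepared together. The labels do not say, and the shared numbers were not taken as a pairing. Of 33 named regions, 25 stayed missing from the same library alone at −log10 q of at least 5, 25 with lists of equal length, 30 after merging within 500 bp and 25 with at least 50% coverage. Depth of 7.76 to 9.84 M ChIP reads and 2 libraries a group limit what a missing call can show.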
